A study of Mus musculus with 12 samples.

Results

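The miRNAs described here are both arms of miR-132 and both arms of miR-212, which are cut from a pair of neighbouring hairpins of a single primary transcript. They were taken by name from a table of mouse kidney miRNAs, and all 4 names (miR-132-3p, miR-132-5p, miR-212-3p and miR-212-5p) were found among its 1652. The 12 libraries were made from kidney of untreated wild-type (WT) mice, 6 of them from the day of birth (day 0) and 6 from postnatal day 8, and whether each came from a separate animal is not stated. No transgene, drug or deletion is named for either age, and no strain or sex is stated in the labels. The study looked for miRNAs that differ over this neonatal period and might regulate expression of the nuclear receptor for aldosterone, the mineralocorticoid receptor. These 4 names were picked with their difference between the ages already known, so their levels are given as a description and no p-value is attached to that difference.

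A miRNA is a short RNA that guides Argonaute proteins to matching sites in messenger RNAs and lowers their output, mostly through its seed, bases 2 to 8 from the 5′ end. Each hairpin yields a 5p and a 3p strand, and one of them usually outlives the other. The transcript that carries miR-212 and miR-132 is a known target of CREB, the transcription factor switched on by cyclic AMP and calcium signals. It is best known from neurons, where activity induces it, and from endothelial cells, and miR-132 has also been studied in kidney fibrosis. CREB activity was not measured in these libraries, so the description CREB-driven is background to the values below.

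The mature sequences, from RefSeq (build GRCm38.p6), are shown because the seed shows which arms are alike in the bases that pair with targets. The seed is in capitals.
miR-132-3p: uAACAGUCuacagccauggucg
miR-212-3p: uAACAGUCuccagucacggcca
miR-132-5p: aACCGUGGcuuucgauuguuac
miR-212-5p: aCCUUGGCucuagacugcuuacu
Both 3p arms carry the same seed, and no other mature mouse name in the RefSeq table does: 2 of 1679 names have it. They match at 17 of 22 positions. Counted from 1 at the 5′ end of miR-132-3p, the differences to miR-212-3p are A10C, C14U, U17C, U20C and G22A, all outside the seed. The 5p arms have different seeds, each held by 1 name in that table. Lined up without an offset they match at 9 of 22 positions, and with miR-212-5p moved by 1 base at 14 of 21. Both 3p arms begin with U and both 5p arms with A. The 3p arms thus part at 5 positions, and how mismatches were treated in the counting is not given.

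On GRCm38 the miR-212 hairpin lies at chr11:75173388-75173478 and the miR-132 hairpin at chr11:75173682-75173747, both on the plus strand with 203 bases between them. The GENCODE M21 annotation places both within the long non-coding gene 1700016P03Rik (chr11:75172560-75177633, plus strand). Its first exon ends at 75172597 and its second starts at 75173978, so both hairpins lie in its first intron and overlap 0 exons. The build used for the deposited table is not given in the sources used here, and these positions come from the annotation alone.

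The libraries held 3372228 to 9046292 miRNA reads at day 0 and 5157265 to 11782109 at day 8. Levels are in CPM, reads scaled so that each library sums to 1000000, so they are shares and not amounts per cell. In a principal component analysis the ages parted along the first axis, with 68.5% of the variance. On the second (10.4%), day 0 replicate 6 lay at 12.6 and day 8 replicate 3 at 6.46, the others between -5.12 and 2.46. These libraries also had the fewest reads of their age, and results that rest on them are given with and without them. Epithelial miRNAs were read as a description of the tissue. No other tissue was compared, so they do not establish that it is kidney. The 15 names of miR-192, miR-194, miR-204, miR-429 and the miR-200 hairpins summed to 37602 to 42590 CPM at day 0 and 56855 to 67001 CPM at day 8.

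All 4 arms were lower at day 8 than at day 0 as shares of the library, and miR-132-3p differed most. Its mean was 309 ± 54.9 CPM at day 0 and 110.7 ± 27.9 CPM at day 8 (SD, n = 6 per group), which is 2.79-fold lower. miR-212-3p, which shares its seed, was 2.50-fold lower, miR-212-5p 1.95-fold and miR-132-5p 1.44-fold. For all 4 names the lowest day 0 library lay above the highest day 8 library. As background, 35.1% of the 564 names tested were lower at day 8 without overlap, a background from which nothing is read since the members were chosen on this contrast.

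miR-132-3p, the main product of the pair and the arm usually studied as miR-132, ran from 228 CPM (lowest) through 326 (median) to 371 (highest) at day 0. At day 8 it ran from 92.5 through 98.9 to 166 CPM. The highest day 8 value came from replicate 3, and the other 5 libraries of that age stayed at or below 112 CPM. Without replicate 3 the day 8 mean was 99.6 ± 7.59 CPM (SD, n = 5) and the difference 3.10-fold. It ranked 143rd of all names by mean CPM at day 0 and 185th at day 8. Between 856 and 3123 reads lay behind each value, so counting error was small. In day 8 replicate 3 the 166 CPM had a 95% exact binomial interval of 155 to 177.5 CPM, clear of the next library at 112 CPM (104.9 to 119.6). These intervals cover counting error only.

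miR-212-3p, the arm with the same seed, ran from 9.44 through 10.47 to 12.9 CPM at day 0. At day 8 it ran from 3.43 through 4.21 to 6.20 CPM. Replicate 3 was again the highest at day 8, and without it the difference was 2.75-fold. Only 28 to 102 reads lay behind a value, and the 6.20 CPM of replicate 3 came from 32 reads, with an interval of 4.24 to 8.76 CPM. That interval reaches down to the next library, at 4.24 CPM. miR-212-3p was thus the least abundant of the 4 at both ages, and the least precisely measured.

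miR-212-5p, the more abundant arm of its hairpin, ran from 13.4 through 17.1 to 20.6 CPM at day 0. At day 8 it ran from 6.35 through 8.39 to 12.6 CPM, with replicate 3 highest. The groups came close, with 13.4 CPM the lowest at day 0 and 12.6 CPM the highest at day 8. Those values came from 85 and 65 reads, and their intervals (10.7 to 16.5 and 9.73 to 16.1 CPM) overlapped.

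miR-132-5p, the passenger arm of the miR-132 hairpin, had the smallest difference. It ran from 13.04 through 13.9 to 15.1 CPM at day 0 and from 6.86 through 9.84 to 12.6 CPM at day 8. The gap between the ages was 13.04 against 12.6 CPM, less than the counting error of either library. Without day 8 replicate 3 the highest day 8 value was 10.2 CPM and the difference 1.53-fold.

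**Figure D1:**
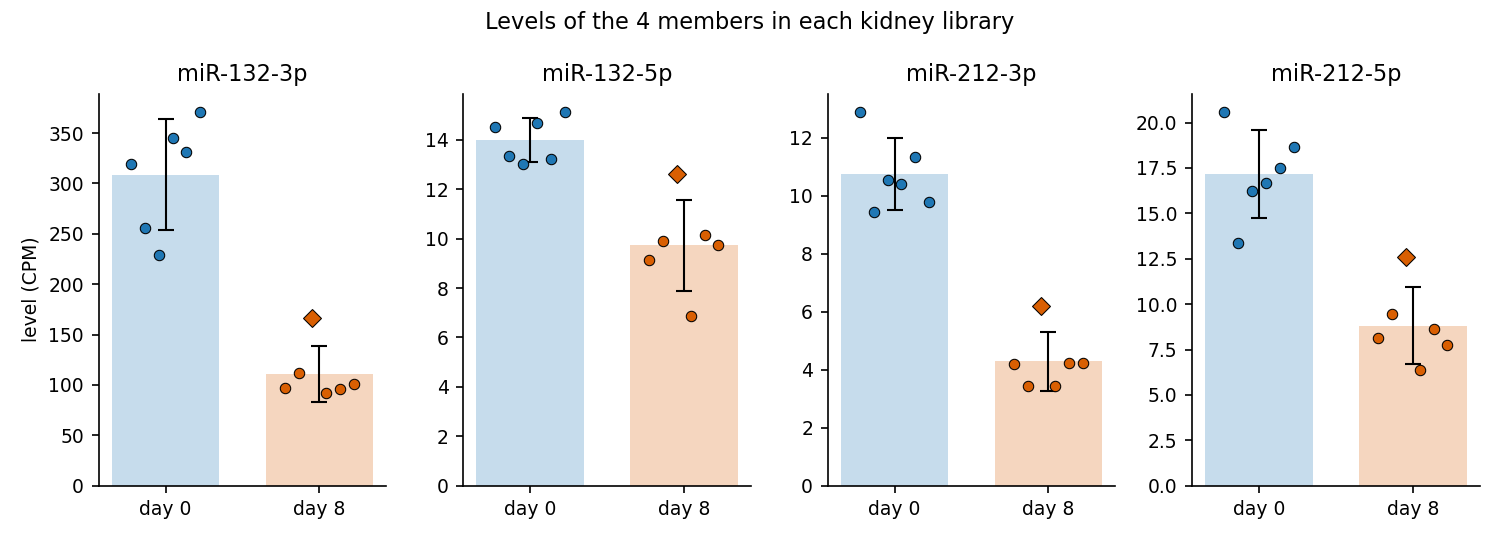
Level in CPM (y axis, from 0) of each arm in the 6 day 0 and 6 day 8 kidney libraries. Points are libraries, the diamond is day 8 replicate 3, bars are means and error bars SD; the day 8 points lie below the day 0 points in all 4 panels, and the diamond is the highest day 8 point in each.

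Added up, the 4 arms stood at 350 ± 57.3 CPM at day 0 and 133.5 ± 32.4 CPM at day 8 (SD, n = 6), a 2.62-fold difference. The seed shared by both 3p arms summed to 319 ± 55.1 and 115 ± 28.8 CPM. miR-132-3p thus carried nearly all reads with that seed. It made up 87.9% ± 1.64 of the 4 arms at day 0 and 82.8% ± 1.51 at day 8. miR-132-5p made up 4.06% ± 0.536 and 7.37% ± 0.890, the largest gain in share among the other 3.

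The whole table was then fitted with limma on log2(CPM + 1), in which a log2 change is day 8 minus day 0 and SE its standard error. The changes were -1.48 (SE 0.158) for miR-132-3p, -1.16 (SE 0.137) for miR-212-3p, -0.90 (SE 0.151) for miR-212-5p and -0.50 (SE 0.128) for miR-132-5p. All 4 names passed an adjusted p of 0.05, as did 64.7% of the 564 names tested (48.2% passed and were lower). Since the names were chosen on this contrast, nothing is read from that count. The median change of all 564 names was -0.34, so the typical name was also lower as a share. Without day 0 replicate 6 and day 8 replicate 3 the changes of the same 4 arms were -1.55, -1.28, -0.98 and -0.55. Of the names tested, 13.3% had a more negative change than miR-132-3p, and 43.8% a more negative one than miR-132-5p.

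Because a CPM depends on the rest of the library, the same fit was made after rescaling by TMM factors, which moved the median of all names to -0.00. The split of calls then became 171 higher and 193 lower, against 93 higher and 272 lower on the library total. miR-132-3p was lower under every scaling tried, by -1.09 with TMM, -1.06 with RLE and -0.91 with upper quartile factors. miR-212-3p was also lower under each, at -0.83, -0.80 and -0.67. miR-212-5p was at -0.55, -0.52 and -0.38. miR-132-5p was at -0.14 and -0.11 with TMM and RLE factors and at 0.026 with upper quartile factors, so its direction turned with the scaling. Under each of these 3 scalings 3 of the 4 names passed the threshold, the exception being miR-132-5p, beside 34.2% of all names that passed and were lower with TMM, 33.5% with RLE and 27.8% with upper quartile factors. The libraries of both ages were free of overlap for miR-132-3p and miR-212-3p with TMM or RLE factors (background 23.6% of names lower without overlap for each), while miR-212-5p and miR-132-5p overlapped. With upper quartile factors (background 19.7%) miR-132-3p overlapped as well, the lowest day 0 library at 176 and the highest day 8 library at 183 rescaled CPM.

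**Figure D2:**
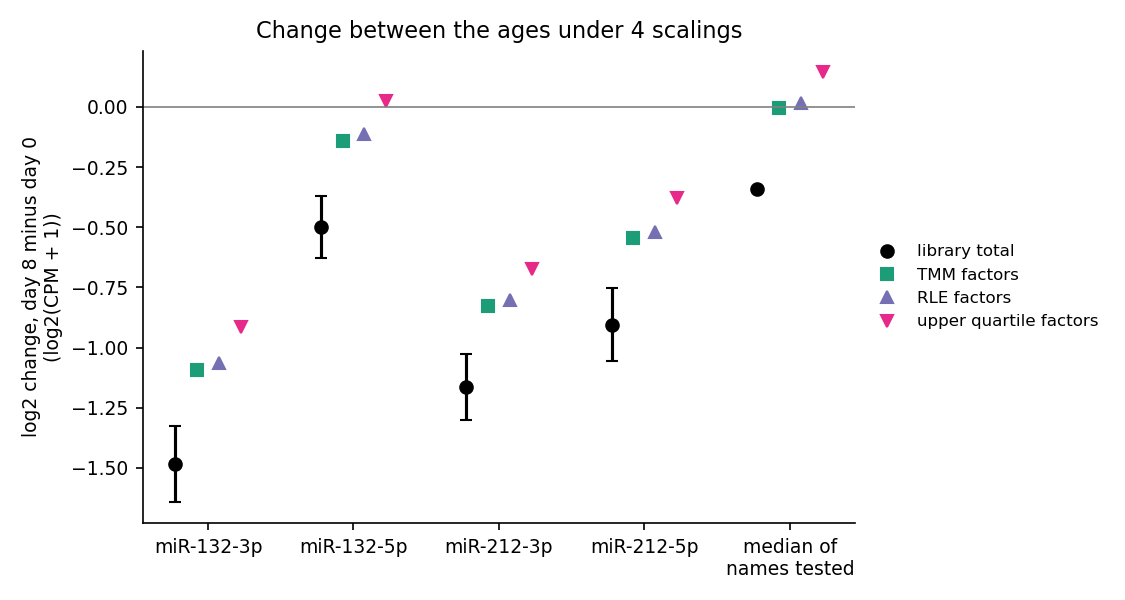
Difference of mean log2(CPM + 1) between the ages, day 8 minus day 0 (y axis), for each arm and for the median of the 564 names tested, under 4 scalings. Symbols mark the scaling and bars are SE for the library total; the changes of miR-132-3p, miR-212-3p and miR-212-5p stay below 0, while miR-132-5p reaches 0.026 with upper quartile factors.

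Ratios between arms of a library do not depend on the scaling factor, apart from the pseudocount of 1. Within the miR-132 hairpin the 3p arm had more reads in 12 of 12 libraries. The mean log2 ratio of miR-132-3p to miR-132-5p was 3.86 ± 0.549 (SD, n = 12 libraries, two-sided exact permutation test by sign flips, p = 0.000488, adjusted p = 0.000651 over 4 ratios). Within the miR-212 hairpin the order was the opposite, and the 5p arm had more reads in 12 of 12 libraries. The mean log2 ratio of miR-212-3p to miR-212-5p was -0.76 ± 0.206 (SD, n = 12, exact permutation p = 0.000488, adjusted p = 0.000651). The smallest p this test can give is 0.000488.

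Across the hairpins, miR-132-3p exceeded miR-212-3p in 12 of 12 libraries, with a mean log2 ratio of 4.55 ± 0.282 (SD, n = 12, exact permutation p = 0.000488, adjusted p = 0.000651). The 5p arms of both hairpins stood closer to each other, and their order differed between the ages. miR-212-5p was the higher one in 5 of 6 day 0 libraries (mean log2 ratio of miR-132-5p to miR-212-5p -0.27), miR-132-5p in 5 of 6 day 8 libraries (0.14), and the arms were equal in 1 library of each age. Within either age the level ratio miR-132-5p/miR-212-5p did not pass (n = 6, exact permutation test, adjusted p = 0.0625 at each). With the arms equal in 1 of 6 libraries, 0.0625 is the smallest p this test can give. The ratio could not have passed at either age, so nothing is read from that miss. Over both ages, which go opposite ways, the mean log2 ratio was -0.07 ± 0.250 (SD, n = 12, exact permutation p = 0.373, adjusted p = 0.373). In order of level, miR-132-3p was far above the rest, miR-212-5p and miR-132-5p followed in an order that depended on the age, and miR-212-3p came last. The efficiency of adapter ligation differs between small RNA sequences and was not measured, so these ratios compare reads and not molecules.

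The ratios also moved with age, which is given as a description since it comes from the same contrast. miR-132-3p gave 22.0 ± 3.05 reads for each read of miR-132-5p at day 0 and 11.4 ± 1.61 at day 8 (SD, n = 6). The day 0 libraries ran from 17.5 to 25.1 and the day 8 libraries from 9.45 to 13.5, with no overlap. On the log2 scale the difference was -0.98. Day 8 replicate 3, which had the highest level of all 4 arms, had a ratio of 13.2, within the range of its age. Among 112 hairpins with both arms at a mean of at least 5 CPM, the median difference of this ratio was -0.15 with quartiles of -0.49 and 0.44, and miR-132 stood at percentile 7.59.

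The miR-212 arms shifted less. The ratio of miR-212-3p to miR-212-5p was 0.629 ± 0.0597 at day 0 and 0.492 ± 0.0675 at day 8, with ranges of 0.524 to 0.706 and 0.364 to 0.549 that overlapped. The log2 difference was -0.26, at percentile 44.2 of the same hairpins. Between the hairpins, miR-132-3p was 29.0 ± 5.86 times miR-212-3p at day 0 and 26.0 ± 3.75 times at day 8, and those ranges overlapped too. miR-132-5p was 0.826 ± 0.103 times miR-212-5p at day 0 and 1.12 ± 0.0939 times at day 8. The ages met where the arms were equal: day 0 replicate 2 had 85 reads of each arm and day 8 replicate 3 had 65 of each.

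**Figure D3:**
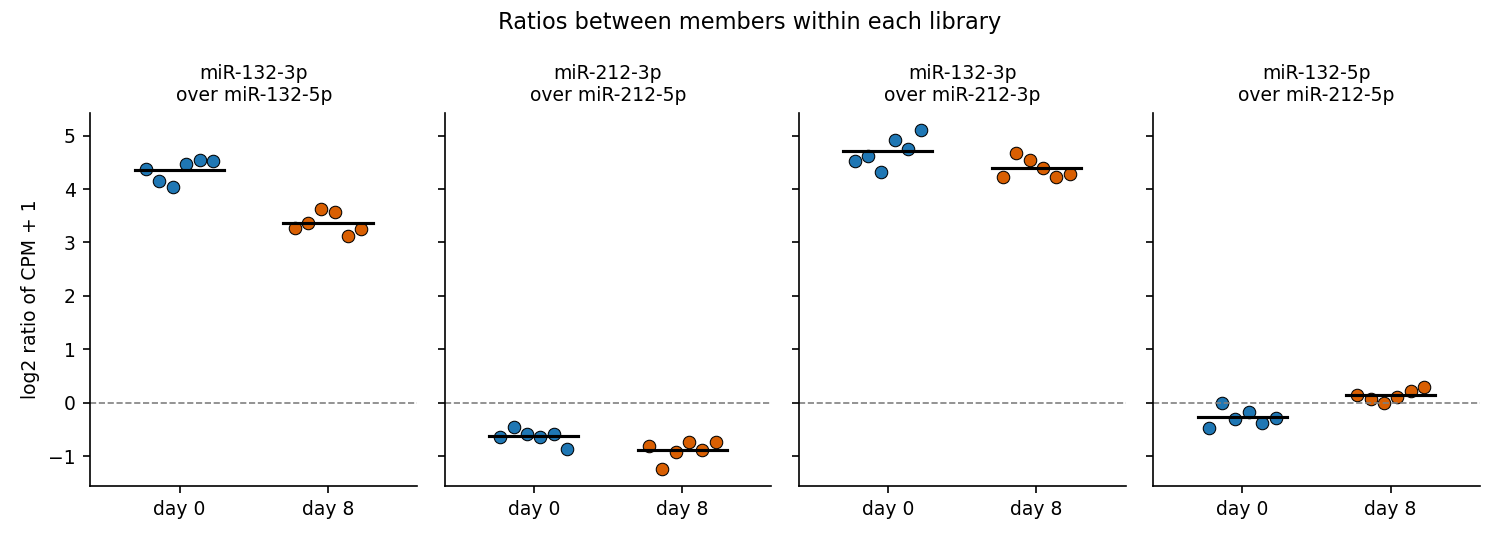
Log2 ratio of CPM + 1 between members (y axis) in each of the 12 libraries, with day 0 and day 8 on the x axis. Points are libraries and lines are means; miR-132-3p lies far above miR-132-5p and miR-212-3p, miR-212-3p lies below miR-212-5p in every library, and the 5p arms lie near 0.

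Spread within an age is independent of the difference between ages, and it was compared across the 6 libraries of each age. Counting alone would give miR-132-3p a coefficient of variation of 2.26% at day 0 and 3.18% at day 8. The observed values were 17.8% and 25.2%, and 7.62% at day 8 without replicate 3. For miR-132-5p the observed 6.36% at day 0 was below the 10.55% that counting would give, and for miR-212-3p 11.6% stood against 12.3%. At day 0 these 2 arms varied by no more than their read numbers allow. At day 8 they varied more than counting, at 19.0% against 10.8% for miR-132-5p and 23.7% against 16.3% for miR-212-3p. Without replicate 3 the day 8 values were 14.7% and 11.1%. The second lies below the 16.3% of counting, so the excess of miR-212-3p rested on replicate 3. miR-212-5p exceeded counting at both ages, at 14.1% against 9.60% and 24.1% against 11.3% (14.2% without replicate 3).

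Correlations between members were taken within each age, and 0 of 8 passed correction (1 had an unadjusted exact permutation p under 0.05). Within hairpins Pearson's r was 0.74 to 0.78 at both ages (n = 6 libraries each, exact permutation p from 0.0778 to 0.119, adjusted p = 0.159 over 8), and Spearman's rho 0.26 to 0.83 (exact p from 0.0583 to 0.658, adjusted p from 0.233 to 0.752). Between miR-132-3p and miR-212-3p r was 0.18 at day 0 (exact permutation p = 0.743, adjusted p = 0.743, rho -0.14, p = 0.803, adjusted p = 0.803) and 0.81 at day 8 (exact p = 0.106, adjusted p = 0.159, rho 0.37, p = 0.497, adjusted p = 0.663). Between the 5p arms r was 0.56 at day 0 (exact permutation p = 0.258, adjusted p = 0.295, rho 0.49, p = 0.356, adjusted p = 0.569) and 0.93 at day 8 (exact p = 0.0292, rho 0.89, p = 0.0333, adjusted p = 0.159 and 0.233).

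Without the 2 libraries farthest from the median on the first axis, r for the 5p arms at day 8 was 0.44, so that value rested on those libraries, one of them replicate 3. For miR-212 at day 0 it went to -0.41 and for the 3p arms at day 0 to -0.95. In the other 5 it was 0.52 to 0.93. Values of 1 library share its total and its preparation, and their part in these correlations was not tested.

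The names whose profile was most like the mean profile of the 4 arms were sought among 312 names with a mean of at least 20 CPM. Over all 12 libraries the 5 most similar were miR-125b-1-3p (r = 0.98), miR-130b-5p (0.97), miR-181d-5p (0.97), miR-181b-5p (0.97) and miR-17-5p (0.97). All 5 were lower at day 8, which follows from how they were picked, since the 4 arms were themselves lower then. miR-125b-1-3p, the passenger arm of a miR-125b hairpin, stood at 131.9 ± 22.2 and 51.6 ± 7.63 CPM, and miR-130b-5p at 253 ± 45.1 and 76.1 ± 15.8 CPM (SD, n = 6 per group). miR-17-5p, of the miR-17-92 cluster tied to proliferation, stood at 1509 ± 97.4 and 654 ± 169 CPM.

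After each age's mean was subtracted, so that the difference between ages played no part, the 5 most similar were miR-222-3p (r = 0.90), miR-181b-5p (0.90), miR-28a-5p (0.89), miR-181d-5p (0.86) and miR-151-5p (0.83). Both miR-181 names appear in both lists. Without the libraries that stand apart, day 0 replicate 6 and day 8 replicate 3, these r were 0.69, 0.69, 0.85, 0.71 and 0.62 over 10 libraries. miR-181b-5p stood at 2275 ± 376 and 1063 ± 379 CPM, and miR-222-3p, which targets cell cycle inhibitors, at 90.6 ± 15.4 and 117 ± 41.1 CPM. These likenesses are descriptions over libraries that share depth and preparation.

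Other miRNAs linked to CREB or regulated by neuronal activity were taken as a list of 8 hairpins with 17 names, of which 11 were tested. The list was chosen with earlier results of these data known, so counts and p-values of its names are descriptions only. By limma 7 of the 11 were lower at day 8, beside 48.2% of all names, and 4 did not pass. With TMM factors 5 passed as lower, beside 34.2% of all names, and 1 as higher, beside 30.3%. With upper quartile factors 3 passed as lower, beside 27.8% of all names, and 2 as higher, beside 213 of all 564 names. The median log2 change of the list was -0.62 (-0.26 with TMM factors), against -0.34 for all names (-0.00 with TMM factors).

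miR-134-5p, an activity-regulated miRNA from the imprinted Dlk1-Dio3 cluster, fell from 289 ± 47.2 to 54.0 ± 6.98 CPM (SD, n = 6; log2 change -2.39, limma adjusted p = 1.21e-09), the largest change in the list. miR-137-3p, known from neuronal differentiation, fell from 11.6 ± 4.98 to 3.98 ± 0.351 CPM (-1.24, limma adjusted p = 0.000215). miR-138-5p, which acts at synapses, fell from 57.1 ± 8.17 to 28.2 ± 2.95 CPM (-0.99, limma adjusted p = 2.94e-06). These 3 also fell with TMM factors.

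miR-34b and miR-34c, are made from 1 transcript, and miR-34b is reported to target CREB in human leukaemia cells. miR-34c-5p fell from 289 ± 13.8 to 171 ± 15.3 CPM (-0.76, limma adjusted p = 1.68e-06) and miR-34c-3p from 6.72 ± 1.41 to 3.55 ± 1.06 CPM (-0.78, limma adjusted p = 0.00141), and both fell with TMM factors as well. With upper quartile factors neither passed, at -0.19 for miR-34c-5p (limma adjusted p = 0.116) and -0.31 for miR-34c-3p (limma adjusted p = 0.131). miR-34b-3p fell from 22.3 ± 3.61 to 14.1 ± 1.95 CPM (-0.62, limma adjusted p = 0.000611), but at -0.26 with TMM factors it did not pass. miR-34b-5p was at 21.9 ± 3.42 and 19.4 ± 3.21 CPM (-0.17, limma adjusted p = 0.283; 0.20 with TMM factors, also short of the threshold).

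miR-9, a neural miRNA reported to take part in a loop with CREB in human glioma cells, did not pass for either arm. miR-9-5p was at 4007 ± 1006 and 3933 ± 446 CPM (SD, n = 6; -0.00, limma adjusted p = 0.993), and with TMM factors it was higher at day 8 (0.39, adjusted p = 0.0220). miR-9-3p was at 231 ± 39.2 and 197 ± 39.9 CPM (-0.24, limma adjusted p = 0.171; 0.15 with TMM factors). miR-184-3p was at 8.29 ± 5.93 and 9.70 ± 5.06 CPM (limma adjusted p = 0.765). miR-138-2-3p, at 2.34 ± 0.656 and 1.47 ± 0.299 CPM, passed on the library total (limma adjusted p = 0.0250). It did not pass with TMM factors, nor without day 0 replicate 3 or 5 or day 8 replicate 1 or 2, where the adjusted p was 0.0527 to 0.0708.

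**Figure D4:**
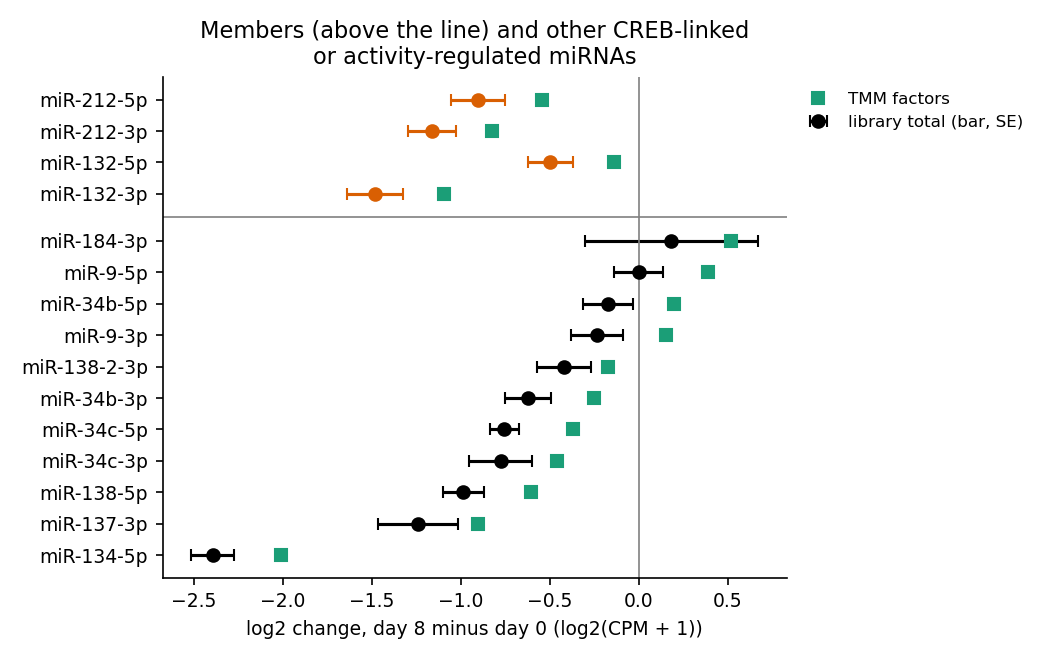
Difference of mean log2(CPM + 1) between the ages, day 8 minus day 0 (x axis), for the 4 members (above the line) and the 11 tested names of the list of CREB-linked or activity-regulated miRNAs. Circles with SE bars are on the library total and squares use TMM factors; miR-134-5p lies farthest to the left at -2.39, and miR-9-5p and miR-184-3p lie near or above 0.

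miRNAs of other cell types that could carry miR-132 and miR-212 were read beside them. Their lists were also chosen with earlier results known, so counts and p-values of their names are descriptions only. In bulk kidney, fewer cells of a type and less RNA per cell cannot be told apart. Of 10 tested neuronal names 6 were lower, and TMM factors gave 4 lower and 2 higher names. Of all names 48.2% were lower and 16.5% higher on the library total, and TMM factors gave 34.2% lower and 30.3% higher. The neuronal list shares miR-9, miR-124, miR-137 and miR-138 with the list above, and its 19 names summed to 5853 to 8791 CPM at day 0 and 5559 to 7227 CPM at day 8, ranges that overlapped. miR-124-3p, the most neuron-specific of them, was near 0, at 0.157 to 1.19 CPM at day 0 and 0 to 0.255 CPM at day 8. miR-7 and miR-375, found in neuroendocrine cells such as those of the adrenal next to the kidney, summed to 1197 to 1608 and 624 to 810 CPM. Of their 4 tested names 3 were lower and 1 higher, or 2 and 1 with TMM factors, against the same background. The higher one was miR-375-3p, at 58.9 ± 6.77 and 88.8 ± 24.6 CPM (SD, n = 6; limma adjusted p = 0.00541). miR-7b-5p, the most abundant, was at 982 ± 61.5 and 476 ± 56.3 CPM. The part of the neuronal and neuroendocrine names in the difference of the 4 arms was not tested.

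The endothelial names of miR-126a and miR-126b went the other way, from sums of 101240 to 115860 CPM to sums of 120610 to 146670 CPM, and 2 of 3 tested were higher at day 8, and also with TMM factors. Of all names 16.5% were higher on the library total and 30.3% with TMM factors, the background to this and the next 3 lists. Smooth muscle and pericyte names (miR-143 and miR-145a) summed to 32760 to 38418 and 40883 to 46961 CPM, with 2 of 4 higher on the library total and 4 of 4 with TMM factors. Of 6 leukocyte names 2 were higher and 1 lower, or 4 and 1 with TMM factors, with overlapping sums of 2309 to 4443 and 2887 to 5401 CPM. Of 12 tested kidney epithelial names 8 were higher and 3 lower, and TMM factors gave 8 and 0, where 48.2% of all names were lower on the library total and 34.2% with TMM factors. Of 3 erythroid names 0 passed by limma, and 0 had an unadjusted p under 0.05. Of all names 64.7% passed by limma in either direction. By edgeR and DESeq2 0 erythroid names passed, where 368 and 369 of all 564 names did. With upper quartile factors 1 erythroid name passed as higher, where 213 of all 564 names did.

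Striated muscle and liver miRNAs were read as possible markers of tissue carried along with the kidney, whose presence was not tested. They were lower at day 8 in 5 of 5 tested names (48.2% of all names), and in 4 of 5 with TMM factors (34.2%). They summed to 1204 to 5137 CPM at day 0 and 458.5 to 735 CPM at day 8. Their highest day 8 sum, 735 CPM, was in replicate 3, the library in which all 4 arms were highest. Of the 3 most abundant names, liver miR-122-5p was at its day 8 maximum there (330 CPM). The muscle names miR-1a-3p and miR-206-3p were at their day 8 minimum there (368 and 4.65 CPM). In the same library the endothelial sum, 120610 CPM, was the lowest of its age. Whether these markers bear on the levels of miR-132 and miR-212 was not tested.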

How the data were processed

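Small RNA libraries of mouse kidney, 6 of day 0 and 6 of day 8, were prepared with a QIAseq kit after extraction with a NucleoSpin miRNA kit, per the labels' protocols. Per the submitters' processing notes, FastQC was among the tools. Aligner, genome build, miRBase release and use of molecular identifiers: not given in the sources used here, so intervals from read numbers cover counting error only. The authors deposited CPM values, in which each library sums to 1000000. Divided by the worth of 1 read in their library, 100% of them came out whole within 0.001, and these recovered reads served for intervals and count tests. Libraries were grouped by the age label and numbered in series order. Title numbers are lower for day 0 than for day 8 throughout, so any order they mark cannot be told apart from age. Separate animals are not stated, and p-values cover only the spread among libraries, which may be technical. No library copied another (lowest chi-square per degree of freedom within an age, 50.9).

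Because the file holds CPM, log2(CPM + 1) was fitted with limma 3.58.1 under R 4.3.3, using trended variances, for names with at least 1 CPM in at least 6 libraries (564 of 1652), with Benjamini-Hochberg adjustment at 0.05. This scale understates changes of low names. Alternatives were edgeR 4.0.16 and DESeq2 1.42.0 on the recovered reads, TMM, RLE and upper quartile factors, other filters and pseudocounts, and libraries left out. The limma step was tested on simulated data. It called 5 of 364 unchanged names, 53 of 67 changed 1.5-fold, 62 of 67 changed 2-fold and 66 of 66 changed 4-fold. The simulation gave all names the same dispersion and held no difference in scaling between the ages, so it cannot speak to scaling. Members and lists were chosen with earlier results of these data known. Named miRNAs are the 4 members, the 5 names most like them by each measure, tested names of the list linked to CREB, and the 3 most abundant of each marker list, where a result touches them. List members were matched by hairpin name, so both arms count. All 12 columns of the table were used.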

Additional observations from a re-analysis of the deposited data

Results flagged for a closer look

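Among 16 sets of 6 libraries (4 arms and 4 ratios at each age), 3 held a library far from the others by Dixon's test, of which chance flags about 1 in 20. Day 8 replicate 3 stood apart for miR-132-3p, at 166 CPM, and for miR-212-3p, at 6.20 CPM. For miR-132-3p the gap to the next library was 0.734 of the range of the age, and for miR-212-3p 0.707. Day 8 replicate 2 stood apart in the log2 ratio of miR-212-3p to miR-212-5p, at -1.24, where the gap was 0.630 and 28 reads of the 3p arm lay behind the value.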

How the results depend on the processing

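On the library total the 4 arms kept their direction without a filter and under the pseudocounts and left-out libraries tried. A filter of 10 CPM in 6 libraries removed miR-212-3p and left the other 3 lower. Without single libraries the log2 change was -1.60 to -1.43 for miR-132-3p, -1.26 to -1.11 for miR-212-3p, -1.003 to -0.83 for miR-212-5p and -0.57 to -0.41 for miR-132-5p. miR-132-5p turned to 0.026 with upper quartile factors. The number of names called was 365, and 162 with a fold of at least 2, where 25 were higher and 137 lower. It was 327 to 375 without single libraries, 364 with TMM factors and 368 by edgeR. The log2 ratios without single libraries were 3.80 to 3.93 (miR-132-3p to miR-132-5p), -0.78 to -0.71 (miR-212-3p to miR-212-5p), 4.50 to 4.58 (miR-132-3p to miR-212-3p) and -0.10 to -0.03 (miR-132-5p to miR-212-5p). The last was 0.14 in the day 8 libraries alone and -0.27 in those of day 0. Correlations stayed on the same side of the threshold with other pseudocounts and TMM factors. miR-9-5p turned to 0.39 with TMM, 0.42 with RLE and 0.57 with upper quartile factors, 0.36 by edgeR and 0.39 by DESeq2. miR-128-3p, a neuronal name at -0.32, turned to 0.066, 0.10, 0.25, 0.070 and 0.10 in the same order. miR-34b-5p turned to 0.20 with TMM, 0.23 with RLE and 0.37 with upper quartile factors, 0.21 by edgeR and 0.25 by DESeq2, and miR-9-3p to 0.15, 0.18, 0.33, 0.16 and 0.20, with only 0.37 past the threshold among these 10. The cause was not tested. No paired analysis was possible because no library of day 0 shares a number with one of day 8. Reads limit miR-212-3p most, with as few as 28 in a library.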
